A study of Mus musculus with 10 samples.

Results

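The comparison described here asked how mouse B16 melanoma cells with syndecan-1 (Sdc1) knocked down differed, under interferon gamma, from knockdown cells given wild-type Sdc1 as well. Its 4 samples, out of 10 in the series, were chosen by their titles: 2 with the Sdc1 knockdown ("knockdown") and 2 with the knockdown plus wild-type Sdc1 ("wild-type"). All 4 came from the B16 line, all carried the knockdown, and all received interferon gamma at 10 ng/ml for 24 h. The other 6 samples are MC38 cells and entered only one alternative fit. No unstimulated sample and no B16 sample with intact Sdc1 is among those used here, so the response to interferon itself was not measured. The labels do not give the hairpin, the construct or its promoter, whether a line was 1 clone, or whether replicates were cultured apart. The p-values therefore rest on variation among these 4 samples, part or all of which may be technical.

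Syndecan-1 is a transmembrane proteoglycan whose heparan sulfate chains bind growth factors, chemokines and matrix proteins at the cell surface. Interferon gamma signals through its receptor and the JAK kinases, and switches on the transcription factor IRF1, guanylate-binding proteins, the chemokines CXCL9, CXCL10 and CXCL11, and antigen presentation genes. B16 cells are a pigmented melanoma line in which these genes respond to interferon gamma.

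Total counts were 13095279 and 11489867 in the knockdown samples and 12633947 and 12526431 in the wild-type samples, so a gene with no count lay below 0.229 to 0.261 counts per 1000000 (CPM, taking 3 counts as the floor, which covers counting error only). The 14 melanocyte markers summed to 14448 and 14388 CPM in the knockdown and to 15226 and 14762 CPM in the wild-type samples, and 13 of the 14 reached at least 1 CPM in each sample. The 21 leukocyte markers summed to between 11.2 and 13.6 CPM, with 7 of them at 0 in all 4 samples, among them Cd3e and Itgam.

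The 2 wild-type samples stood further apart than the 2 knockdown samples. Over 10560 genes with a mean of at least 5 CPM, the median absolute log2 difference was 0.158 within the wild-type pair and 0.086 within the knockdown pair. Wild-type sample 2 carried a trend with GC content: its median log2 difference from the knockdown mean went from 0.23 for genes under 40% GC to -0.30 for genes at 60% GC or more. Wild-type sample 1 was flat over GC content (-0.02 and 0.01 in the same bins) but carried a trend with transcript length, from 0.14 under 1000 bases to -0.07 at 8000 bases or more. Each effect is therefore given for both wild-type samples separately, against both knockdown samples, with and without a correction for GC content and length ("corrected"). Where GC content or length is given beside a gene or list below, its part in the values was not tested.

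**Figure D1:**
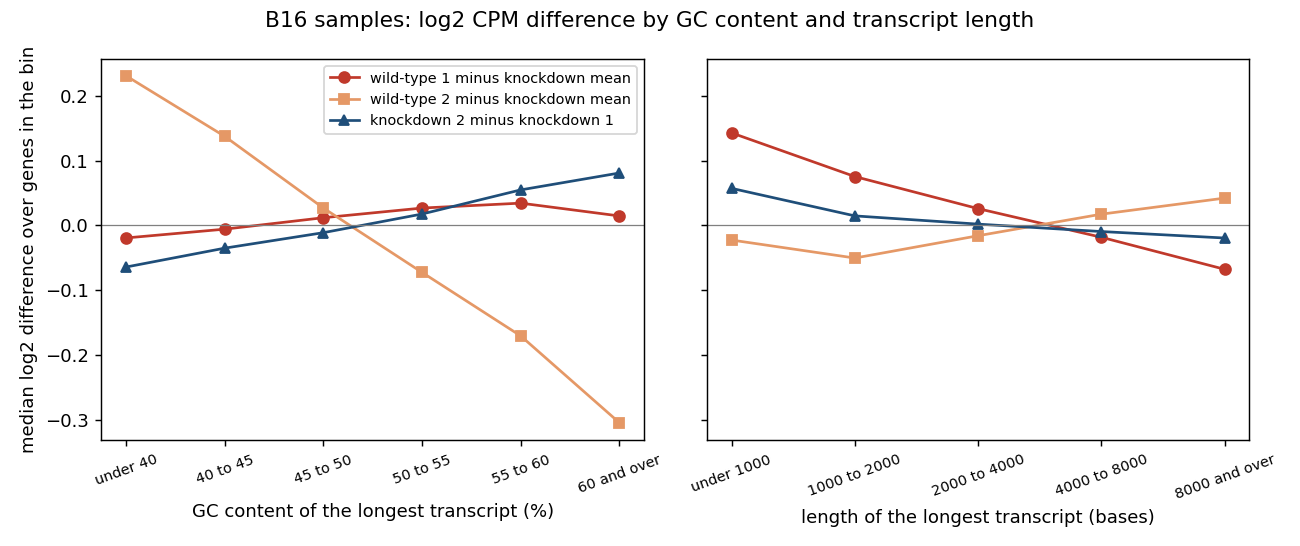
Median log2 difference in CPM over the genes of each bin of GC content (left, %) or length (right, bases) of the longest annotated transcript. Circles and squares are wild-type samples 1 and 2 against the mean of the knockdown pair, and triangles are knockdown sample 2 against knockdown sample 1. Wild-type sample 2 runs from 0.23 to -0.30 over GC content, and wild-type sample 1 from 0.14 to -0.07 over length.

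With all 4 samples in 1 fit, edgeR's quasi-likelihood test called 0 of 14336 genes (0%) at an adjusted p under 0.05, while 791 genes had an unadjusted p under 0.05 (350 higher and 441 lower in the wild-type). DESeq2 called 10 genes, limma-voom 0, and the corrected edgeR fit 17, of which 4 were higher and 13 lower. Among these 17 were Sdc1, Rpl29, Hmgcs1 and Ftl1 on the higher side, and Thbs1, Fn1, Cxcl9, Gbp10, C3, Isg15 and Ifit3 on the lower side. Wild-type sample 1 alone gave 177 genes called higher (1.18% of 15024) and 149 called lower (0.992%). Wild-type sample 2 alone gave 604 higher (4.01% of 15073) and 691 lower (4.58%). After the correction the counts were 202 higher (1.34%) and 143 lower (0.952%) in sample 1, and 194 higher (1.29%) and 214 lower (1.42%) in sample 2. These single-sample fits share both knockdown samples and assume that the lone wild-type sample varies like the knockdown pair, which was the tighter pair. A second description, with no test, is the position of the samples: both wild-type samples lay above both knockdown samples for 2510 genes (17.5%) and below both for 2487 (17.3%), and on opposite sides of them for 3372. After the correction both lay above for 19.6% and below for 18.1% of genes. In what follows, "called" means an adjusted p under 0.05 in the fit named. Counts of list members called in a fit are to be read beside the share of all genes called in that fit, given above.

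Sdc1 itself was measured first, since it checks the labels. It stood at 40.7 and 42.5 CPM in the knockdown samples and at 71.6 and 57.8 CPM in wild-type samples 1 and 2. Both wild-type samples lay above both knockdown samples, sample 1 further than sample 2. The log2 fold change was 0.78 in sample 1 (adjusted p = 1.1e-10) and 0.48 in sample 2 (adjusted p = 0.00083), and 0.76 and 0.62 after the correction. With all 4 samples it was 0.64 (SE 0.12, adjusted p = 0.27), and 0.69 with an adjusted p of 0.0054 after the correction. The table has 1 row for Sdc1, so reads of the endogenous gene and of the re-expressed form cannot be told apart. Of the other syndecans, Sdc4 was at 118, 115, 114 and 115 CPM over knockdown 1, knockdown 2, wild-type 1 and wild-type 2, and it was called in neither sample. Sdc3 was at 76.8, 76.7, 74.0 and 59.8 CPM, and Sdc2 at 43.3, 42.2, 48.9 and 53.5 CPM. Sdc3 was called lower (adjusted p = 0.0047) and Sdc2 higher (adjusted p = 0.044) in wild-type sample 2 alone, and neither after the correction.

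**Figure D2:**
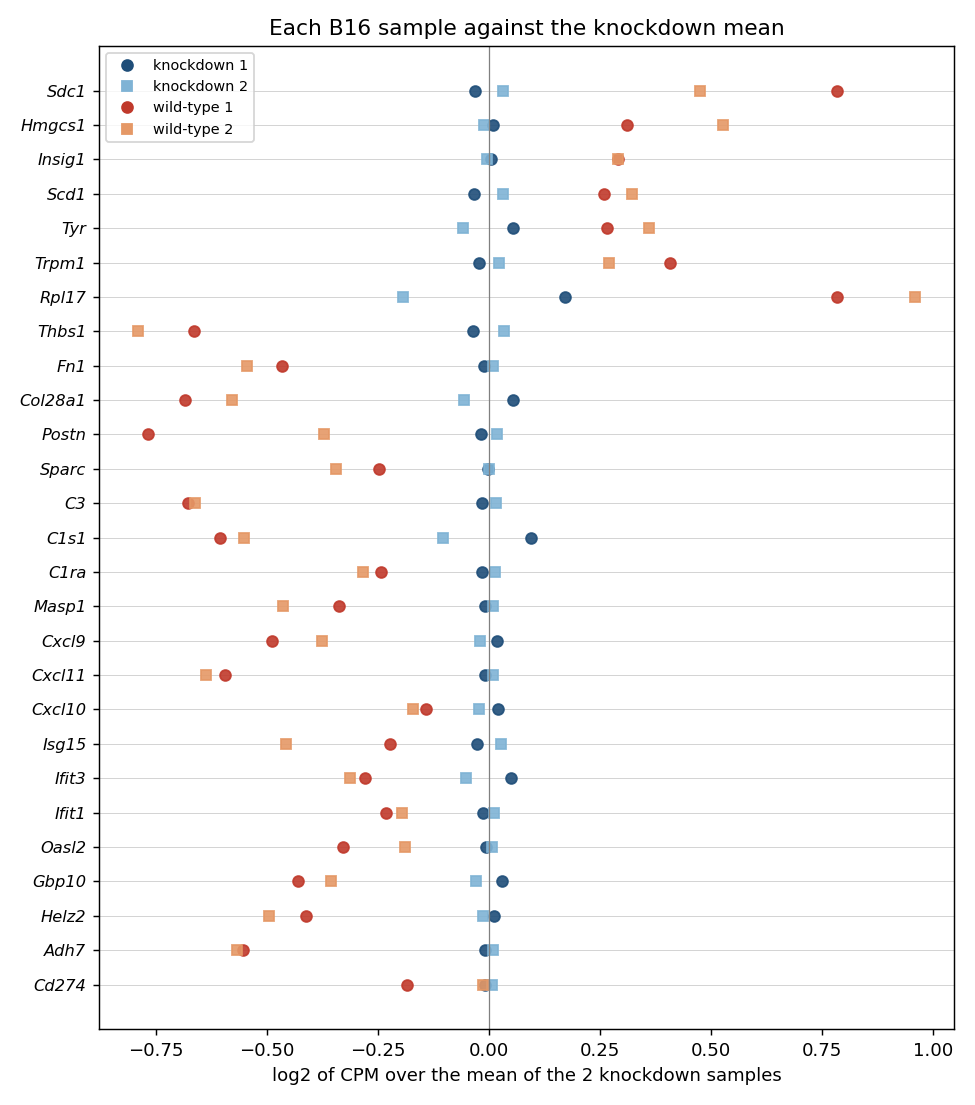
Position of each of the 4 B16 samples for 27 genes, as log2 of its CPM over the mean of the 2 knockdown samples (blue). Red circles are wild-type sample 1 and orange squares wild-type sample 2. Sdc1, sterol genes and Tyr sit to the right of the knockdown samples in both, matrix, complement, chemokine and interferon genes to the left. For Cd274 both lie to the left, sample 2 by -0.01.

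Most of the matrix genes tested lay lower in both wild-type samples. Of 24 tested members of the collagen and matrix list, 14 lay below both knockdown samples in both wild-type samples and 1 lay above, against 17.3% and 17.5% of all genes. In wild-type sample 1, 7 members were called lower and none higher, and in sample 2, 6 were called lower and none higher. After the correction the calls were 6 and 4, and the members below in both numbered 10. The list's median log2 fold change was -0.27 in sample 1 and -0.27 in sample 2, and -0.23 and -0.11 after the correction, while that of all genes tested was within 0.01 of 0 in each fit.

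Thbs1, which encodes the matrix glycoprotein thrombospondin-1, was at 115 and 121 CPM in the knockdown samples and at 74.6 and 68.4 CPM in the wild-type samples. Thbs1, Fn1 and Col28a1 were named by a rule that took genes whose groups did not overlap, so that position was set by the choice. The log2 fold changes of Thbs1 were -0.67 in sample 1 and -0.79 in sample 2. With all 4 samples Thbs1 had -0.72 (SE 0.09) at an adjusted p of 0.10, and -0.69 at 0.0020 after the correction. Fn1, fibronectin, an integrin and heparan sulfate ligand, was at 835 and 847 CPM against 609 and 577 CPM. It was called lower in both samples (-0.47 and -0.54), and in the corrected fit of all 4 (-0.42, adjusted p = 0.0054). Col28a1, a beaded-filament collagen chain not in the list, was at 74.4 and 68.9 against 44.6 and 48.0 CPM, also called lower in both samples and in the corrected fit of all 4 (adjusted p = 0.012).

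Sparc, a collagen-binding matrix protein, had 765 and 766 CPM against 645 and 603 CPM and was called lower in each wild-type sample, with and without the correction. Postn, periostin, was at 34.4 and 35.3 against 20.5 and 26.9 CPM. It was called lower in sample 1 (-0.77) and not in sample 2 (-0.37, adjusted p = 0.053), and in both after the correction (-0.70 and -0.64). The fibrillar collagen gene Col5a1 was at 87.8 and 91.5 against 66.6 and 66.8 CPM. It was called in both samples, but after the correction only in sample 1 (adjusted p = 0.0014) and not in sample 2 (-0.21, adjusted p = 0.22). The basement membrane proteoglycans Hspg2 (perlecan; 473 and 521 against 407 and 329 CPM) and Agrn (agrin; 462 and 469 against 382 and 365 CPM), which like syndecan-1 carry heparan sulfate, were called lower in each sample with and without the correction. For Hspg2 the log2 fold change was -0.29 in sample 1 and -0.59 in sample 2, and -0.17 and -0.30 after the correction. Heparan sulfate proteoglycans did not fall as a group. Of 14 tested in the list of syndecans and other such genes, 4 lay above and 4 below in both wild-type samples. After the correction 3 lay above and 3 below. Vim and Cdh2, mesenchymal genes, were called lower in wild-type sample 2 and not in sample 1. Vim was at 2248 and 2336 against 2232 and 1950.4 CPM, and Cdh2 at 167 and 159 against 144 and 136 CPM.

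Complement genes also lay mostly below. None of the 9 tested members lay above both knockdown samples in both wild-type samples, and 6 lay below, against 17.5% and 17.3% of all genes. In sample 1, 3 were called lower, and in sample 2, 4 (3 in each after the correction), with none called higher. The list's median was -0.24 in sample 1 and -0.27 in sample 2, and -0.26 and -0.23 after the correction. C3, the central component cleaved in every complement pathway, was also named by the rule that took genes whose groups did not overlap. It was at 63.0 and 64.5 CPM in the knockdown and at 39.9 and 40.3 CPM in the wild-type samples. Its log2 fold changes were -0.68 and -0.66 (adjusted p = 2.0e-07 and 4.0e-07), and -0.67 and -0.55 after the correction. C1s1, encoding the C1s protease that starts the classical pathway, was at 57.9 and 50.5 against 35.6 and 37.0 CPM. Its partner protease C1ra was at 149 and 152 against 127 and 124 CPM. Masp1, a protease of the lectin pathway that was not in the list, was at 175 and 177 against 139.6 and 128 CPM. C1s1, C1ra and Masp1 were called lower in each wild-type sample, with and without the correction, whereas C4b (146 and 143 against 132 and 134 CPM) was called in neither. C1s1 and C1ra have close copies in the mouse genome, which makes their separate counts uncertain.

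Among 18 tested genes of interferon gamma signalling, 7 lay below and 1 above both knockdown samples in both wild-type samples, and 5 lay on opposite sides. Of all genes, 17.3% lay below and 17.5% above in both. Over all 14336 genes tested, 5077 lay below and 5201 above in sample 1, and 5542 below and 5480 above in sample 2. Of the 18 signalling genes, 12 lay below and 1 above in sample 1, and 8 below and 8 above in sample 2. None was called in sample 1, and in sample 2, where 4.01% of all genes were called higher and 4.58% lower, 1 was called higher and 2 lower. After the correction none was called in either sample, 5 lay below and 1 above in both, and the medians were -0.07 and -0.03 (-0.06 and -0.01 before it). Irf1, an interferon-induced transcription factor, was at 632 and 623 CPM in the knockdown and 614 and 595 CPM in the wild-type. Ifngr1, a chain of the interferon gamma receptor, was at 17.2 and 16.1 against 16.1 and 18.3 CPM. Stat2, at 473 and 475 against 431 and 429 CPM, lay below in both samples but was called in neither.

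Antiviral interferon-stimulated genes, which block steps of viral replication, were called in 1 direction. Of 40 tested members, 18 lay below both knockdown samples in both wild-type samples and 1 lay above, against 17.3% and 17.5% of all genes. After the correction 26 lay below and 1 above, against 18.1% and 19.6% of all genes. In wild-type sample 1, 13 members were called lower and none higher, and in sample 2, 11 lower and none higher (13 and 7 after the correction). The list's median was -0.15 and -0.09, and -0.17 and -0.13 after the correction. The members named next were picked after their values were seen.

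Upstream sequences are shown for Isg15, Ifit1 and Ifit3, which lay lower in both wild-type samples, and for the chemokine gene Cxcl10. They come from RefSeq on build GRCm38.p6, each as the 250 bases before the annotated start, 5′ to 3′ on the gene's strand. Capitals mark matches, on either strand, to GAAA followed by any 2 bases and GAAA again, the core letters of the interferon-stimulated response element (ISRE), which is bound by IRF1 and related factors. Overlapping matches were merged in Isg15. The windows are chr4:156200819-156201068 (minus strand) for Isg15, chr19:34640639-34640888 (plus strand) for Ifit1, chr19:34583279-34583528 (plus strand) for Ifit3 and chr5:92348890-92349139 (minus strand) for Cxcl10.
Isg15: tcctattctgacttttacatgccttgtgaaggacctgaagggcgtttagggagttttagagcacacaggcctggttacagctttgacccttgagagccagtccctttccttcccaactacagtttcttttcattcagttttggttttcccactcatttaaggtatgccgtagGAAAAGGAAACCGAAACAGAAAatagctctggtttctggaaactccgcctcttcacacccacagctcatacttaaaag
Ifit1: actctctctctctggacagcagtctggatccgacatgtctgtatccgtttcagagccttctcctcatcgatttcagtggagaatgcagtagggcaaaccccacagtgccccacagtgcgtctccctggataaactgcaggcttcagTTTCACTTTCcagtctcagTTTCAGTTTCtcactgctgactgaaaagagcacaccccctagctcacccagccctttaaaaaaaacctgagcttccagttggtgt
Ifit3: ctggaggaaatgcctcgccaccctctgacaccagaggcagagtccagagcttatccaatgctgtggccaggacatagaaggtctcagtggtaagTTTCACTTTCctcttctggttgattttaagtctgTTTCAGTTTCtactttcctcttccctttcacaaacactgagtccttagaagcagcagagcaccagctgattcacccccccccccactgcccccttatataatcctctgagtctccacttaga
Cxcl10: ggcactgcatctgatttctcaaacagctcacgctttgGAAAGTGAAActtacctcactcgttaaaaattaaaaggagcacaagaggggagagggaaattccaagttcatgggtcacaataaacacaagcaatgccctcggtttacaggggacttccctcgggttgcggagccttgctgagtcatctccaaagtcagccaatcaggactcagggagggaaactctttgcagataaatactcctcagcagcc
Isg15 held 3 such matches, Ifit1 and Ifit3 2 each, and Cxcl10 1. Of all 32851 promoters in the table, 2.98% held a match in the same window. Of the antiviral list, 30 of the 40 tested members had a promoter listed and 11 of these held one (36.7%). All 9 guanylate-binding and IRG genes with a promoter in the table held one. Of 16 tested chemokine and cytokine genes, 11 had a promoter listed and 1 of these, Cxcl10 itself, held one (9.09%). Here and for the motifs below, a list member counted if any of its listed promoters held a match. The share of all promoters counts each promoter singly, so the 2 shares are not in the same unit. A match is a description of letters, not a bound site.

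Isg15, encoding a ubiquitin-like modifier, was at 161 and 167 CPM in the knockdown and 140.3 and 119 CPM in the wild-type samples. Calls of lower expression came from sample 1 (-0.22, adjusted p = 0.045) and from sample 2 (-0.46, adjusted p = 2.0e-08), and after the correction its values drew together (-0.34 and -0.41). Ifit3, which with Ifit1 encodes proteins that recognise viral RNA, was at 501 and 467 against 399 and 389.6 CPM. Its log2 fold changes were -0.28 and -0.31, and -0.34 with an adjusted p of 0.034 in the corrected fit of all 4. Ifit1 was at 181 and 184 against 155 and 159 CPM and was called lower in each sample. Helz2, a helicase coactivator, was at 151 and 149 against 113 and 106 CPM, also called in each sample (-0.41 and -0.50). Oasl2, an oligoadenylate synthetase-like gene, was at 233 and 236 against 187 and 206 CPM and was called in both samples, but not in sample 2 after the correction (-0.17, adjusted p = 0.072). Of the members with the highest CPM, Rnf213 (783 and 808 against 729 and 752 CPM) was called in neither sample, and Parp14 (733 and 693 against 624 and 695 CPM) in sample 1 alone (adjusted p = 0.017), and not there after the correction (adjusted p = 0.061). Ifit3 has a near-identical neighbour, Ifit3b, and how reads with several matches were counted is not given, so its value is uncertain.

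Of 16 tested chemokine and cytokine genes, 2 were called lower in sample 1 and 3 in sample 2, with none higher (4 and 3 lower after the correction). Of these 16, 7 lay below and 2 above both knockdown samples in both wild-type samples, against 17.3% and 17.5% of all genes. The medians of the 16 were -0.13 and -0.14 (-0.17 and -0.15 after the correction). Cxcl9, a ligand of the T-cell chemokine receptor CXCR3, was at 477 and 464 CPM in the knockdown and at 336 and 363 CPM in the wild-type samples. Its log2 fold changes were -0.49 (adjusted p = 2.3e-14) and -0.38 (adjusted p = 3.3e-08), and -0.49 and -0.50 after the correction. Cxcl11, a second CXCR3 ligand, was at 33.8 and 34.2 against 22.6 and 21.9 CPM and was called lower in each sample. The reference annotation lists mouse Cxcl11 as a polymorphic pseudogene. Cxcl10, the third CXCR3 ligand, was at 764 and 741 against 683 and 669 CPM. It was called lower in sample 2 (-0.17, adjusted p = 0.029) and not in sample 1 (-0.14, adjusted p = 0.14), and in both after the correction (-0.17 and -0.21). Ccl5 was at 86.2 and 81.0 against 74.9 and 72.4 CPM and was called in neither sample before the correction.

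Guanylate-binding proteins and IRGs, GTPases that attack vacuoles of intracellular pathogens, were where the 2 samples parted before the correction. Of 17 tested members, 6 lay below in both wild-type samples, none above in both and 7 on opposite sides. Of all 14336 genes, 17.3% lay below in both, 17.5% above in both and 3372 genes on opposite sides. The list's medians were -0.14 in sample 1 and 0.02 in sample 2. The median GC content of this list is 43.5%, against 49.2% over all genes. Whether that bears on the difference between the samples was not tested. In sample 1, 3 were called lower and none higher, and in sample 2, 2 lower and 2 higher. After the correction the medians were -0.13 and -0.11, 11 members lay below in both, and 4 were called lower and none higher in each sample. Gbp10 was at 242 and 232 against 176 and 186 CPM and was called lower in both samples, with -0.45 at an adjusted p of 0.0054 in the corrected fit of all 4. Gbp3 (745 and 731 against 656 and 696 CPM) and Gbp9 (119 and 115 against 93.8 and 105 CPM) were called lower in both samples only after the correction. Iigp1, at 1856 and 1786 against 1661 and 2160.0 CPM, was called higher in sample 2 (0.25), and not after the correction (0.04, adjusted p = 0.75). Gbp2 (2420.2 and 2326 against 2327 and 2281 CPM) and Irgm1 (2390.4 and 2219 against 2309 and 2450.3 CPM) were called in neither sample, with or without the correction. Members of this family share sequence, and their separate counts are uncertain for the same reason as that of Ifit3.

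**Figure D3:**
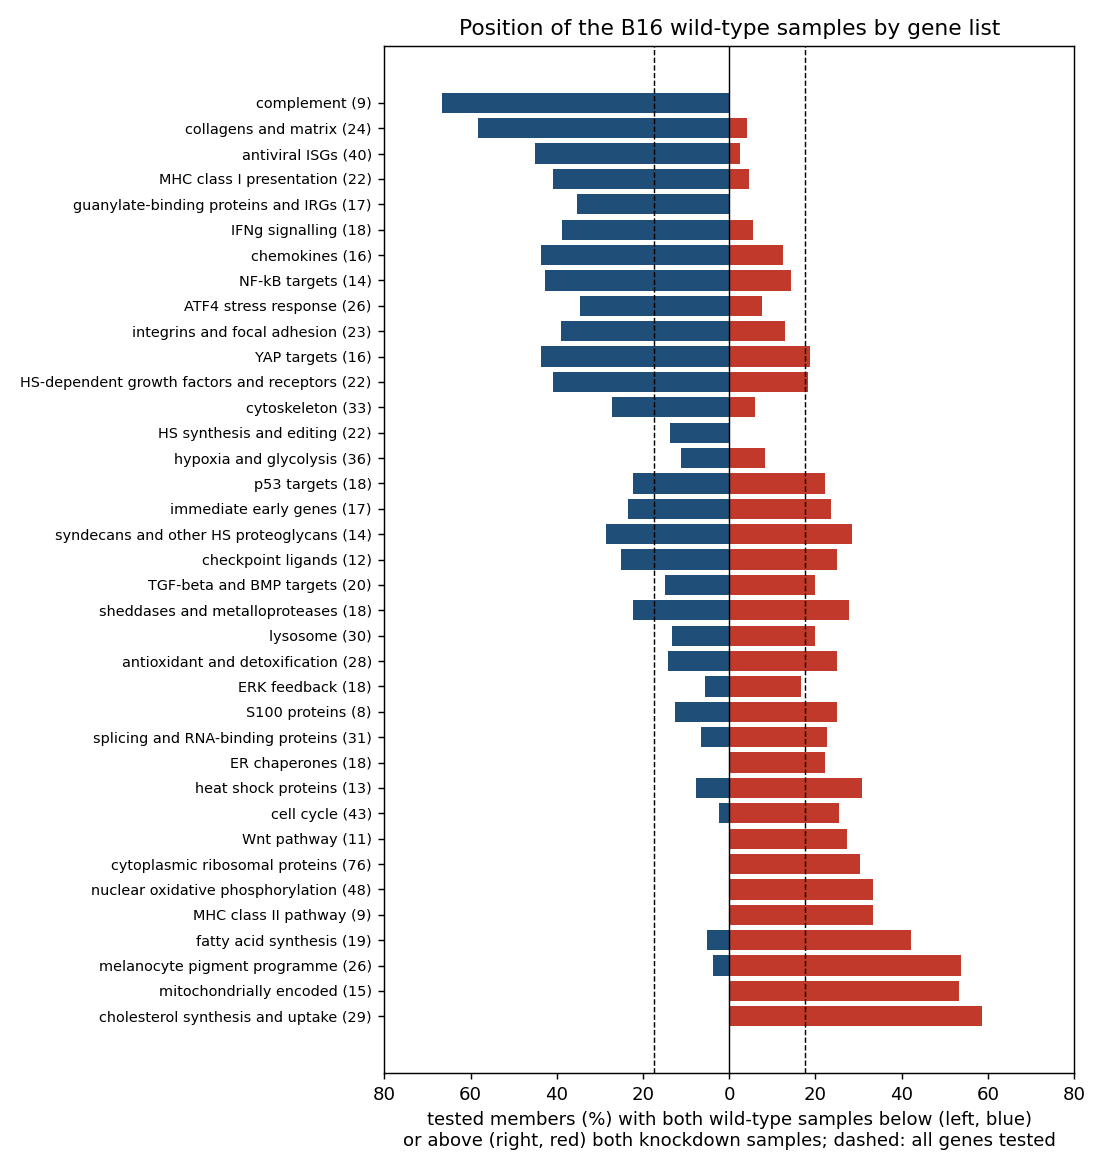
Share of the tested members of each gene list with at least 8 of them (their number in parentheses) for which both wild-type samples lay below (left, blue) or above (right, red) both knockdown samples. Dashed lines mark all 14336 genes tested, 17.3% below and 17.5% above. Complement (6 of 9), collagens and matrix (14 of 24) and antiviral genes (18 of 40) reach furthest left among the lists drawn, and cholesterol synthesis (17 of 29) furthest right.

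Antigen presentation did not move as a block. Over all genes, 17.3% lay below and 17.5% above both knockdown samples in both wild-type samples. Of 22 tested MHC class I presentation genes, 9 lay below and 1 above in both wild-type samples, with 1 called higher and 1 lower in sample 1, and 1 higher and 5 lower in sample 2. After the correction 1 was called higher and 3 lower in sample 1, and none higher and 3 lower in sample 2. B2m, the light chain of class I molecules, was at 1862 and 1884 against 1736 and 1637 CPM. It was called lower in sample 2 (-0.20) and not in sample 1 (-0.11, adjusted p = 0.34), and in both after the correction (-0.20 and -0.40). The heavy chain genes H2-K1 (261 and 275 against 244 and 221 CPM) and H2-D1 (1018 and 1034 against 984 and 823 CPM) were called lower in sample 2 alone before the correction, and are closely similar in sequence. Class II genes differed between the wild-type samples before the correction, and less so in position and median after it. Over all 14336 genes tested, 5201 lay above both knockdown samples in sample 1, and 5480 lay above and 5542 below in sample 2. Of 9 tested class II members, 9 lay above both knockdown samples in sample 1, and 3 lay above and 5 below in sample 2. After the correction 19.6% of all genes lay above and 18.1% below in both wild-type samples. Of the 9 class II members, 6 then lay above in both and none below. Their medians were 0.26 and -0.04 (0.21 and 0.09 after the correction), with 4 called higher in sample 1 and none in sample 2, also after the correction. H2-Aa, a class II alpha chain, was at 117 and 120.1 against 142 and 132 CPM, and its log2 fold change was 0.26 in sample 1 (adjusted p = 0.020) and 0.16 in sample 2 (adjusted p = 0.16). Cd74, the invariant chain, was at 229 and 239 against 253 and 209.5 CPM, on opposite sides. Cd274, which encodes the checkpoint ligand PD-L1, was at 141 and 142 against 125 and 140.3 CPM. Both wild-type samples lay below the knockdown pair, but Cd274 was called in neither, with or without the correction, and its log2 fold changes were -0.19 and -0.01.

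Most genes of cholesterol synthesis and uptake lay higher in both wild-type samples. Of 29 tested members, 17 lay above both knockdown samples in both wild-type samples and none below, and after the correction 22 and none. Of all genes, 17.5% lay above and 17.3% below in both, and 19.6% and 18.1% after the correction. In sample 1, 7 members were called higher and none lower, and in sample 2, 8 higher and none lower (9 and 5 after the correction). The medians were 0.16 and 0.12, and 0.14 in each after the correction. Hmgcs1, an early enzyme of the mevalonate pathway, was at 116 and 115 CPM in the knockdown and at 143 and 166 CPM in the wild-type samples. Its log2 fold changes were 0.31 (adjusted p = 0.0023) and 0.53 (adjusted p = 2.1e-11), and 0.36 at an adjusted p of 0.045 in the corrected fit of all 4. Insig1, which holds the sterol sensor in the endoplasmic reticulum, was at 141 and 139.8 against 172 and 172 CPM. Insig1 was called higher in each sample with and without the correction, by log2 fold changes between 0.27 and 0.29. Sqle, squalene epoxidase, was at 138 and 134 against 159 and 163 CPM. It was called in sample 2 and missed the threshold in sample 1 (0.22, adjusted p = 0.052), and was called in both after the correction.

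The upstream sequence of Hmgcs1 (chr13:119690101-119690350, plus strand, GRCm38.p6) is shown for its match, in capitals, to TCACNCCAC, searched on both strands. These are the core letters of the sterol response element bound by SREBP.
Hmgcs1: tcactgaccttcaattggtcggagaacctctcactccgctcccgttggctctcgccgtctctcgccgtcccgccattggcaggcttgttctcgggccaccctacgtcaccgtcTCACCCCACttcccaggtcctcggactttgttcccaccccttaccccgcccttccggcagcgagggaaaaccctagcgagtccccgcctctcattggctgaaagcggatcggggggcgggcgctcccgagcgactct
The match was the only one in the window, and 1.05% of all promoters held one. Of 21 cholesterol list members with a promoter listed, 1 held it (4.76%), which was Hmgcs1 itself, and the others did not.

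Fatty acid synthesis genes were less uniform. Of 19 tested members, 8 lay above and 1 below in both wild-type samples, against 17.5% and 17.3% of all genes. Calls numbered 2 higher and none lower in sample 1 and 3 higher and 2 lower in sample 2, and 3 and 1 higher with none lower after the correction. Scd1, the stearoyl-CoA desaturase, was at 153 and 161 against 188 and 196 CPM and was called higher in each sample (0.26 and 0.32), also after the correction. Scd2, a second desaturase, was at 1698 and 1692 against 1788 and 1795 CPM and was called in neither. Fasn, fatty acid synthase, was at 739.9 and 779 against 812 and 664 CPM. It was called lower in sample 2 before the correction (-0.19) and not after it (0.02, adjusted p = 0.89), and higher in sample 1 after it (0.18), and 57.9% of its longest transcript is GC.

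Pigment genes were higher in part. Over all genes, 17.5% lay above and 17.3% below in both wild-type samples, and 19.6% and 18.1% after the correction. Of 26 tested members of the melanocyte pigment list, 14 lay above and 1 below in both wild-type samples, and 16 and 1 after the correction. Calls numbered 6 higher and none lower in sample 1 and 3 higher and 1 lower in sample 2, and 8 and 4 higher with none lower after the correction. Trpm1, a melanocyte cation channel gene, was at 55.4 and 57.2 against 74.7 and 67.9 CPM. It was called higher in sample 1 (0.41) and missed the threshold in sample 2 (0.27, adjusted p = 0.068), and was called in both after the correction. Pmel, which forms the fibrils of the melanosome, was at 2133 and 2113 against 2578 and 2183 CPM, called higher in sample 1 and, after the correction, in both. Mitf, the regulator of the programme, was at 227 and 238 against 258 and 273 CPM. It was called in sample 2 before the correction and in sample 1 after it. Tyrp1 (4965 and 4815 against 4926 and 5049 CPM) and Gpnmb (8897 and 9014 against 9466 and 8874 CPM) were called in neither sample, with or without the correction. Sox10, with 61.8% GC, was at 365 and 393 against 384 and 298 CPM. In sample 2 it was called lower before the correction (-0.35) and not after it (-0.06, adjusted p = 0.72).

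Tyr, tyrosinase, the rate-limiting enzyme of melanin synthesis, was at 183 and 169 CPM in the knockdown and at 212 and 226 CPM in the wild-type samples. It was called higher in sample 1 (0.26) and sample 2 (0.36), but after the correction only in sample 1 (0.35) and not in sample 2 (0.07, adjusted p = 0.67). The sequence before its start (chr7:87493513-87493762, minus strand, GRCm38.p6) is shown for its match, in capitals, to TCATGTG, the M-box letters bound by MITF, searched on both strands.
Tyr: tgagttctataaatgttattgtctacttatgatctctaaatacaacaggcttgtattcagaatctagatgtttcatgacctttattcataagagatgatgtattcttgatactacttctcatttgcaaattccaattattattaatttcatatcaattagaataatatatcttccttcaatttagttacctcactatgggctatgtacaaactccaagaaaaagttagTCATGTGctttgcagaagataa
This was the only match in the window. Of all promoters 3.25% held one, and of 17 pigment list members with a promoter listed, 6 did (35.3%).

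The 2 wild-type samples disagreed over many ribosomal and respiratory genes. Of the ribosomal protein genes tested, 23 lay above both knockdown samples in both wild-type samples, none below and 31 on opposite sides. For 48 nuclear genes of oxidative phosphorylation these numbers were 16, none and 22. Over all genes tested, 17.5% lay above in both and 17.3% below. Of 76 tested cytoplasmic ribosomal protein genes, 43 were called higher and none lower in sample 1, and 7 higher and 14 lower in sample 2. After the correction the counts were 32 and none in sample 1 and 12 and 9 in sample 2, so the samples still differed. The list's medians were 0.23 and -0.02 (0.16 and 0.01 after the correction), and its longest transcripts have a median of 1100 bases against 3179 over all genes. Rps2 shows the split, at 1697 and 1709 against 1844 and 1343 CPM. Rpl17 was at 124 and 96.3 CPM in the knockdown and at 189.6 and 214 CPM in the wild-type samples, and Rpl29 at 178 and 177 against 248 and 239.9 CPM. Rpl39 was at 191 and 201 against 252 and 321 CPM. Rpl17, Rpl29 and Rpl39 were called higher in each sample with and without the correction, and Rpl29 also in the corrected fit of all 4 (0.53, adjusted p = 0.034). Ribosomal protein genes have many processed copies in the genome, and their counts are uncertain for that reason.

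Of 48 nuclear genes of oxidative phosphorylation, 12 were called higher and none lower in sample 1, and 8 higher and 4 lower in sample 2. After the correction the counts were 7 and none in sample 1, and 6 and 6 in sample 2. Uqcrh, a subunit of complex III, was at 119.5 and 120.0 against 159 and 154 CPM and was called higher in each sample, with and without the correction. Uqcrq, another complex III subunit, was at 149 and 160.3 against 176 and 109 CPM, called lower in sample 2 (-0.51) with sample 1 on the other side (0.19, adjusted p = 0.12). Of 15 mitochondrially encoded genes, 8 lay above both knockdown samples in both wild-type samples, none below and 3 on opposite sides. Of all genes, 17.5% lay above and 17.3% below in both. After the correction 4 of the 15 mitochondrially encoded genes lay above and 1 below in both. Their medians were 0.07 and 0.49, and 0.01 and 0.22 after it, and their median GC content is 36.0%. One of these genes, mt-Co1, a subunit of cytochrome oxidase, was at 5886 and 5587 against 6602 and 7248 CPM. Its log2 fold changes were 0.20 in sample 1 and 0.34 in sample 2, and 0.17 and 0.13 after the correction.

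**Figure D4:**
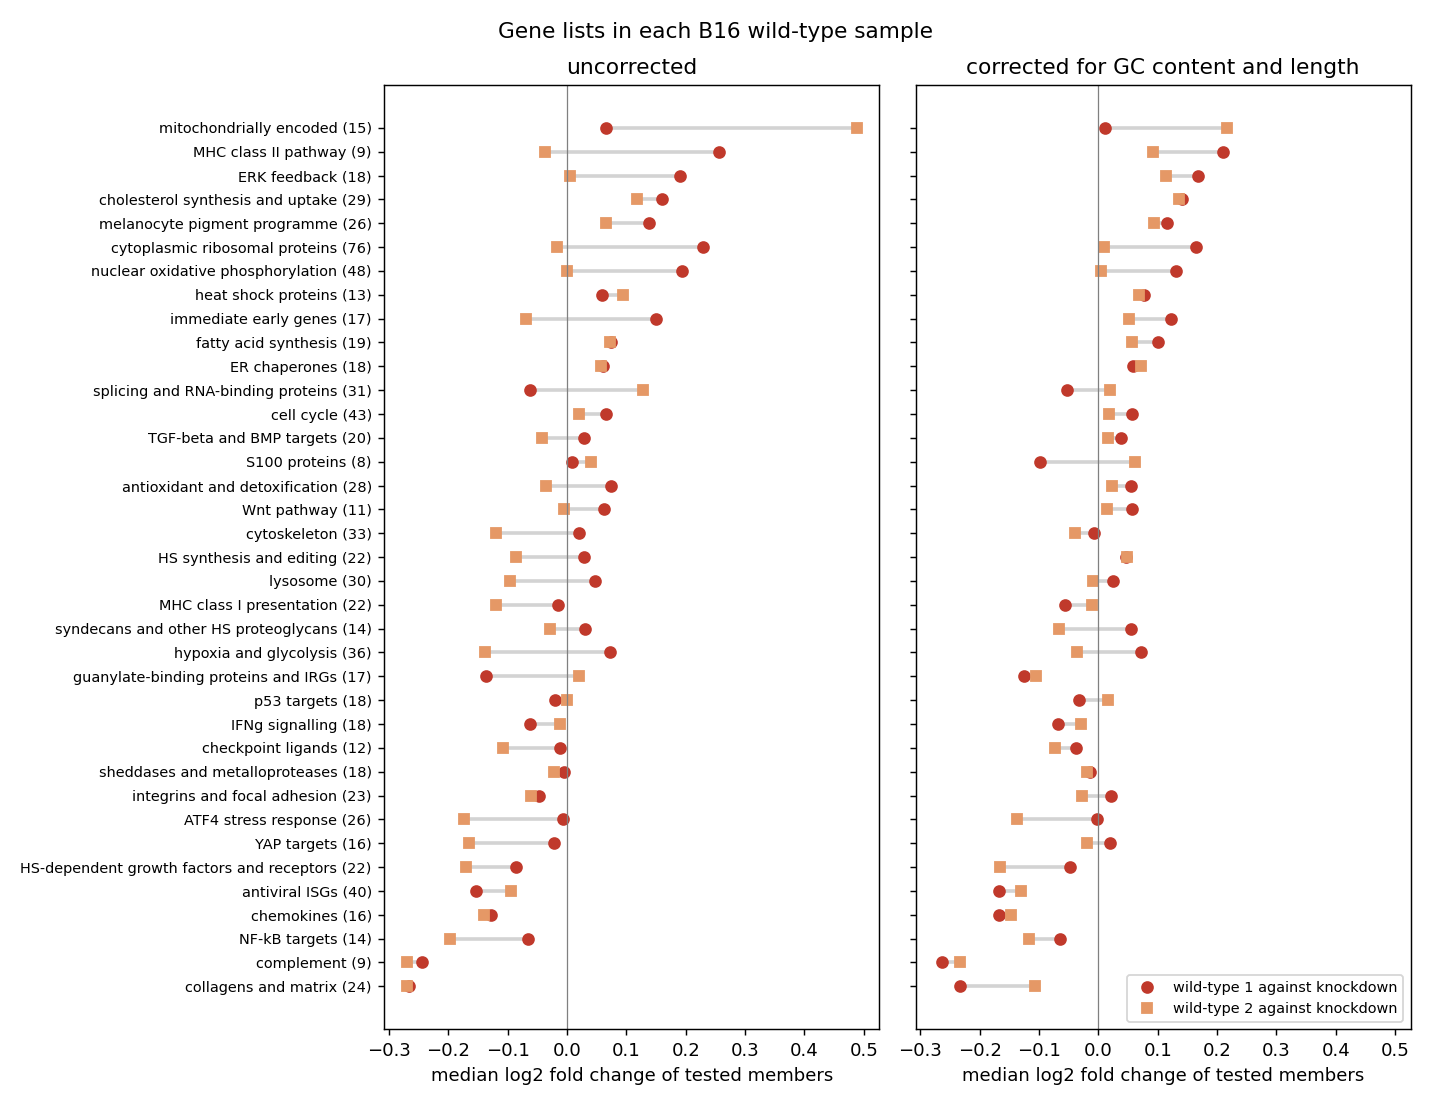
Median log2 fold change of the tested members of each gene list, against both knockdown samples, in wild-type sample 1 (circles) and wild-type sample 2 (squares), before (left) and after (right) the correction for GC content and length. Mitochondrially encoded genes (0.07 and 0.49) and ribosomal protein genes (0.23 and -0.02) are split between the samples before it, while complement (-0.24 and -0.27) and cholesterol genes (0.16 and 0.12) are not.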

How the data were processed

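Messenger RNA libraries were made from total RNA with a standard kit and sequenced as read pairs (Illumina HiSeq), per the labels' protocols. The authors deposited whole-number counts per gene, and no other unit. The submitters' processing notes name Trimmomatic, HISAT2 2.0.5, HTSeq, featureCounts, DESeq2 and build GRCm39. Their order, the annotation release, the strand setting and the handling of multiply mapped reads are not given in the sources used here, so antisense and overlapping genes cannot be told apart. Of 60676 rows, 51884 matched a symbol by Ensembl identifier. Columns of no sample in the labels numbered 0.

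The main test was the robust quasi-likelihood test of edgeR 4.0.16, run under R 4.3.3 (2-sided, after filterByExpr and TMM, Benjamini-Hochberg adjustment over all genes tested). Groups came from the titles. CPM are per 1000000 TMM-normalized counts, and marker sums per 1000000 counts. The common biological coefficient of variation was 8.68% with all 4 samples, 5.20% with either wild-type sample alone and 6.37% after the correction. The correction used smooths of each sample's log2 CPM on GC content and log2 length of the longest GENCODE vM21 transcript (mgcv 1.9.3) as offsets. In the single-sample fits most genes (76.9% to 100% of them) took their quasi-likelihood spread entirely from the trend over genes, so a call can stand where the knockdown samples differ: the position of each sample is given beside it. Simulated counts had the same spread for every gene and sample and no trend with GC content or length. They therefore do not cover those features of the data, nor a wild-type sample that varies more than the knockdown pair. On them the fit of all 4 samples recovered 98% of 50 genes changed 2-fold and 52% changed 1.5-fold among 14336 genes. At 1.2-fold it recovered 8%, and 10 unchanged genes were called. Sample 1 alone recovered 78% of those changed 1.5-fold among 15024 genes, and sample 2 alone 82% among 15073.

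Alternatives were RLE factors, other filters, DESeq2 1.42.0, limma-voom 3.58.1, a replicate block, all 10 samples, the correction and leaving out samples. The samples compared and the 42 gene lists (1072 of 1075 members matched) were chosen with earlier results of these data known. Named genes were Sdc1, the 5 genes with the smallest p each way where none was called, averaging 5 CPM or more, with groups that did not overlap, the 2 members of each list with the highest CPM, and genes of at least 20 CPM split between the wild-type samples. Other genes were named after their values were seen, and some the rule takes are not reported here.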

Additional observations from a re-analysis of the deposited data

How the results depend on the processing

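With all 4 samples edgeR called 0 genes, also with RLE factors, a filter at 5 CPM, limma-voom, a 2-fold minimum or an adjusted p under 0.01. Other settings called few: 42 genes without a low-count filter, 10 by DESeq2, 27 with all 10 samples in 1 fit, 17 with the correction for GC content and length, and 10 with that correction and the replicate block. A replicate block alone gave 15. Shared replicate numbers are not shown to pair the samples: the deviations of same-numbered samples had a correlation of -0.18 over genes, and with crossed numbers, chosen after seeing the data, 5 genes were called. Leaving out 1 sample gave between 3 and 1295 genes (18 without knockdown 1, 3 without knockdown 2, 1295 without wild-type 1 and 326 without wild-type 2). With the correction those left without wild-type 1 numbered 408 and those without wild-type 2 numbered 345. Wild-type sample 1 alone stayed within 1.5 times its 326 calls in its 3 alternatives, while sample 2 went from 1295 to 408 with the correction.

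Sdc1 was higher in the wild-type under each of its alternatives. Its log2 fold change passed the threshold at 0.65 without a filter, 0.64 by DESeq2, 0.63 with the replicate block, 0.64 with all 10 samples, 0.69 with the correction and 0.69 with the correction and the block. It was also called at 0.62 and 0.76 with the correction without wild-type 1 and without wild-type 2. Leaving out 1 sample gave between 0.48 and 0.78, and Sdc1 was not called without knockdown 1 or without knockdown 2. With all 4 samples in edgeR, Sdc1 missed the threshold in the main fit (adjusted p = 0.27) and with RLE factors (adjusted p = 0.27). It also missed it with the filter at 5 CPM (adjusted p = 0.305) and with crossed replicate numbers as the block (adjusted p = 0.063). By limma-voom its adjusted p was 0.31.

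Of 78 single genes named, 16 changed sign in at least 1 alternative to the fit of all 4 samples. That fit called 0 genes, so none of the 78 was called in it. Leaving out 1 sample put Irgm1 in B16 between -0.0072 and 0.094, Gpnmb between -0.014 and 0.077, Taf10 between -0.52 and 0.33, Uqcrq between -0.51 and 0.19, Sumo2 between -1.39 and 0.32, Dnal1 between -0.53 and 0.37 and Rps2 between -0.34 and 0.11. It put Fasn between -0.19 and 0.093, Sox10 between -0.35 and 0.017, Iigp1 between -0.14 and 0.25, Cd74 between -0.16 and 0.11, Ifngr1 between -0.053 and 0.13 and Slc7a5 between -0.18 and 0.26. With the correction, with or without the replicate block, the sign turned to -0.016 for Tyrp1, 0.11 for Fasn and 0.021 for Cd74, and for Iigp1 to -0.037 and, with the block, -0.039. With the correction and without wild-type 1 it turned to 0.0094 for Irf1, -0.024 for Tyrp1, 0.18 for Sumo2, 0.28 for Dnal1, 0.043 for C4b, 0.024 for Fasn and -0.0091 for Slc7a5. With the correction and without wild-type 2 it turned to -0.0077 for Tyrp1, 0.34 for Taf10, 0.13 for Uqcrq, 0.020 for Rps2, 0.18 for Fasn, 0.016 for Sox10, -0.12 for Iigp1, 0.044 for Cd74 and -0.086 for Ifngr1. The cause was not tested. With 2 samples a group, spread is poorly known, and single-sample calls describe those samples.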

Other observations

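Some genes outside the groups above also stood apart from the knockdown samples. Adh7, an alcohol dehydrogenase, was at 46.9 and 47.6 CPM in the knockdown and at 32.2 and 31.9 CPM in the wild-type samples, called lower in each, and in the corrected fit of all 4 (-0.63, adjusted p = 0.033). Fosl2, a member of the AP-1 transcription factor family, was at 59.8 and 64.1 against 44.2 and 40.9 CPM and was called lower in each. Ftl1, the ferritin light chain that stores iron, was at 174 and 192 against 245 and 201 CPM. It was called higher in sample 1 (0.42) and not in sample 2 (0.14, adjusted p = 0.17), and in both after the correction (0.34 and 0.31). Glrb, a glycine receptor subunit gene, was at 121 and 123 against 156 and 163 CPM, and Syt4, a synaptotagmin gene, at 276 and 270.4 against 320.5 and 388 CPM, both called higher in each sample. Tal1, a transcription factor of the blood lineage, was at 5.65 and 7.81 against 12.1 and 13 CPM and was called higher in each sample. Dusp5, a phosphatase that switches off ERK, had 30 counts over the 2 knockdown samples and 1 over the 2 wild-type samples, a ratio of 0.033 per total count (95% exact interval from 0.00081 to 0.20, counting error only). It was not called in sample 1 (adjusted p = 0.11), was called in sample 2 (adjusted p = 0.013) and had an adjusted p of 0.31 with all 4 samples. The list of ERK feedback genes did not share the fall of Dusp5. Of its 18 tested members, 3 lay above and 1 below in both wild-type samples, against 17.5% and 17.3% of all genes. After the correction 6 lay above and 1 below. The list's medians were 0.19 in sample 1 and 0.005 in sample 2. The single genes of this paragraph were picked after their values were seen.

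Among 26 tested genes of the ATF4 amino acid stress response, 9 lay below and 2 above both knockdown samples in both wild-type samples. Over all genes, 17.3% lay below and 17.5% above. After the correction 10 of the 26 lay below and 1 above in both, against 18.1% and 19.6% of all genes. The list's medians were -0.01 in sample 1 and -0.17 in sample 2 (0.00 and -0.14 after the correction), so the median moved mainly in sample 2. Slc3a2, the heavy chain of several amino acid transporters, was at 135 and 143 against 127 and 105 CPM and was called lower in sample 2 alone. Slc7a11, the cystine transporter that pairs with it, was at 74.9 and 68.2 against 57.0 and 59.9 CPM, called lower in sample 1 (-0.33, adjusted p = 0.030) before the correction and in sample 2 (-0.42, adjusted p = 0.00089) after it. Slc7a5, which pairs with the same heavy chain, was at 102 and 109 against 126 and 93.0 CPM, on opposite sides.

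Among the genes of at least 20 CPM with the widest gaps between wild-type samples that lay on opposite sides of the knockdown pair were Sumo2 (155 and 208 CPM in the knockdown, 69.2 and 226 CPM in the wild-type), Taf10 (32.7 and 38.5 against 44.6 and 24.7 CPM) and Dnal1 (28.7 and 25.3 against 18.7 and 34.9 CPM).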
